A study of Mus musculus with 9 samples.

Results

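Endothelial cells line blood vessels, and the 10 genes described here are 9 that mark those cells or their junctions and receptors, Pecam1, Cdh5, Kdr, Flt1, Tek, Emcn, Egfl7, Plvap and Cd34, together with Vegfa, the principal ligand that makes vessels grow. They were taken by symbol from the Ensembl identifiers of a table of 56748 genes. The rule takes genes by name, without a threshold on any measured value. All 10 were found, and all 10 were among the 14431 genes with an FPKM (a transcript level scaled to gene length and library size) of 1 or more in 3 or more libraries. Only such genes were tested. Flt1 and Emcn reached that level in 5 libraries and Tek in 7.

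Vegfa is secreted by granulosa cells, theca cells and other tissues, and binds tyrosine kinase receptors on endothelial cells. Kdr (VEGFR2) passes on most of the growth signal, and Flt1 (VEGFR1) binds the ligand tightly and signals weakly. Granulosa cells of a growing follicle lie inside a basement membrane that vessels do not cross before ovulation, while the theca outside it and the corpus luteum formed afterwards are rich in capillaries.

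The study profiled messenger RNA of granulosa cells, the somatic cells around the oocyte, taken from ovaries of wild-type female C57BL/6 mice whose age the labels do not state. The 3 groups of 3 libraries were Control, CTX (cyclophosphamide, an alkylating drug that damages follicles, injected at 120 mg per kg) and CTX_HCQ (the same injection with oral hydroxychloroquine, a drug that collects in lysosomes, given daily at 40 mg per kg, starting 7 days ahead of the injection and lasting 4 weeks beyond it). Control mice are called vehicle-treated in the design text and untreated in the labels. Whether a library holds cells of 1 mouse or of a pool is not stated, so the p-values here reflect only library-to-library spread, some of which may be technical.

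Granulosa cell markers were present in every library, with Foxl2, a transcription factor of these cells, at 67.8 to 104 FPKM and Fshr, the receptor for follicle-stimulating hormone, at 18.2 to 45.7. The library size behind the FPKM ran from 15344525 to 17943266 reads. Reads recovered gene by gene summed to 13901275 to 17755474, which is not the same measure. The mitochondrial genome supplied 28.9% of all FPKM in library CTX 3, where the remaining 8 had 11.7% to 17.5%. Library CTX 3 also held the highest summed FPKM of 6 oviduct markers, 394, against 77.0 and 132 in the other CTX libraries, 86.9 in Control 1, 8.54 and 4.93 in the other Controls, and 10.2 to 18.8 in CTX_HCQ. Since libraries are bulk RNA, fewer cells of a type and less RNA per cell cannot be told apart.

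Transcripts of vessel cells were detected in all 9 libraries. Over the 9 libraries the median level was 41.4 FPKM for Vegfa, 10.8 for Cdh5, 10.7 for Cd34, 6.35 for Egfl7, 5.71 for Kdr, 4.41 for Pecam1, 3.94 for Plvap, 2.72 for Emcn, 1.89 for Tek and 1.19 for Flt1. Neighbours in this order, except Vegfa and Cdh5, overlapped across libraries. The recovered reads behind 1 value ran from 58 for Tek in Control 2 to 4651 for Vegfa in Control 3. Levels varied most for Flt1, with a highest-to-lowest ratio of 7.27, and least for Kdr, with a ratio of 1.97.

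Vegfa (ENSMUSG00000023951) stood at 30.1, 48.2 and 65.8 FPKM in Control, at 42.1, 39.4 and 29.4 in CTX, and at 59.9, 33.1 and 41.4 in CTX_HCQ. Its groups overlapped in every comparison, and the lowest library was CTX 3, just under Control 1. Group means were 48.0 ± 17.9 (SD, n = 3) in Control, 37.0 ± 6.69 in CTX and 44.8 ± 13.8 in CTX_HCQ.

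The receptor Kdr (ENSMUSG00000062960) stood at 7.09, 3.94 and 4.26 FPKM in Control, at 6.40, 6.97 and 3.60 in CTX, and at 5.51, 6.79 and 5.71 in CTX_HCQ. All groups overlapped, and the CTX_HCQ libraries lay closest together, at 6.00 ± 0.689 against 5.10 ± 1.73 in Control and 5.66 ± 1.80 in CTX. Flt1 (ENSMUSG00000029648) stood at 1.74, 0.310 and 0.270 in Control, at 1.96, 1.37 and 1.19 in CTX, and at 0.442, 1.76 and 0.608 in CTX_HCQ. Control 1 and CTX_HCQ 2 stood far above the other libraries of their groups, whereas every CTX library lay above 1 FPKM. Tek (ENSMUSG00000006386), the angiopoietin receptor TIE2, which keeps vessels quiescent, stood at 3.80, 0.686 and 0.940 in Control, at 4.53, 2.81 and 1.89 in CTX, and at 1.22, 4.21 and 1.52 in CTX_HCQ. Control 1 and CTX_HCQ 2 were again the high libraries of their groups. The ratio of Flt1 to Kdr FPKM ran from 0.0633 in Control 3 to 0.331 in CTX 3, so Flt1 was the lower receptor transcript in all 9 libraries.

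Pecam1 (ENSMUSG00000020717), an adhesion molecule of endothelial contacts that leukocytes and platelets also carry, stood at 9.20, 2.79 and 2.37 FPKM in Control, at 13.0, 8.71 and 4.22 in CTX, and at 2.38, 7.24 and 4.41 in CTX_HCQ. Cdh5 (ENSMUSG00000031871), the cadherin of endothelial adherens junctions, stood at 18.1, 6.83 and 7.19 in Control, at 19.4, 16.8 and 10.8 in CTX, and at 6.90, 14.1 and 8.001 in CTX_HCQ. For both genes Control 1, CTX 1, CTX 2 and CTX_HCQ 2 were the 4 highest libraries. Leukocyte markers were present too. The 12 listed leukocyte genes summed to 143 to 207 FPKM in Control, 174 to 217 in CTX and 150 to 258 in CTX_HCQ, with none at 0, led by the macrophage genes Lyz2 at 66.9 to 141, C1qa at 22.1 to 42.4 and C1qb at 18.1 to 35.7, while Ptprc, the pan-leukocyte surface gene, stood at 0.416 to 0.995. Of 6 platelet markers, which summed to 2.96 to 11.8 FPKM over all libraries, only 1, Pf4, at 1.79 to 10.7, reached the level for testing. The others were too low to be tested, and 1 to 3 were at 0 in each library. The part of blood cells in the Pecam1 level was not tested.

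Emcn (ENSMUSG00000054690), a sialomucin of capillary and venous endothelium, stood at 3.20, 0.773 and 0.718 FPKM in Control, at 4.30, 2.82 and 2.72 in CTX, and at 0.747, 3.52 and 0.783 in CTX_HCQ. Egfl7 (ENSMUSG00000026921), a secreted endothelial factor, stood at 6.35, 2.97 and 2.78 in Control, at 9.76, 6.44 and 6.90 in CTX, and at 2.96, 12.1 and 3.95 in CTX_HCQ. Of the 10 genes, Egfl7 alone had every CTX library above every Control library, by a margin of 6.44 over 6.35. Plvap (ENSMUSG00000034845), which forms the diaphragms of fenestrae in permeable capillaries, stood at 3.94, 2.69 and 2.84 in Control, at 3.47, 5.44 and 6.01 in CTX, and at 3.43, 13.4 and 4.03 in CTX_HCQ. CTX_HCQ 2 was the highest library for Plvap, and its ratio of Plvap to Cdh5 FPKM was 0.950, against 0.179 to 0.555 in the other 8.

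Cd34 (ENSMUSG00000016494), a sialomucin found on endothelium and also on stromal and haematopoietic progenitor cells, followed another order. It stood at 12.3, 13.7 and 14.6 FPKM in Control, at 14.6, 10.7 and 9.62 in CTX, and at 6.25, 8.29 and 5.75 in CTX_HCQ. Every CTX_HCQ library lay below all 6 libraries of the other groups, and Control 2 and Control 3, among the lowest libraries for the junction genes, were among the 3 highest for Cd34. The ratio of Cd34 to Cdh5 FPKM was 2.01 and 2.04 in those 2 libraries and 0.590 to 0.906 in the other 7.

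**Figure D1:**
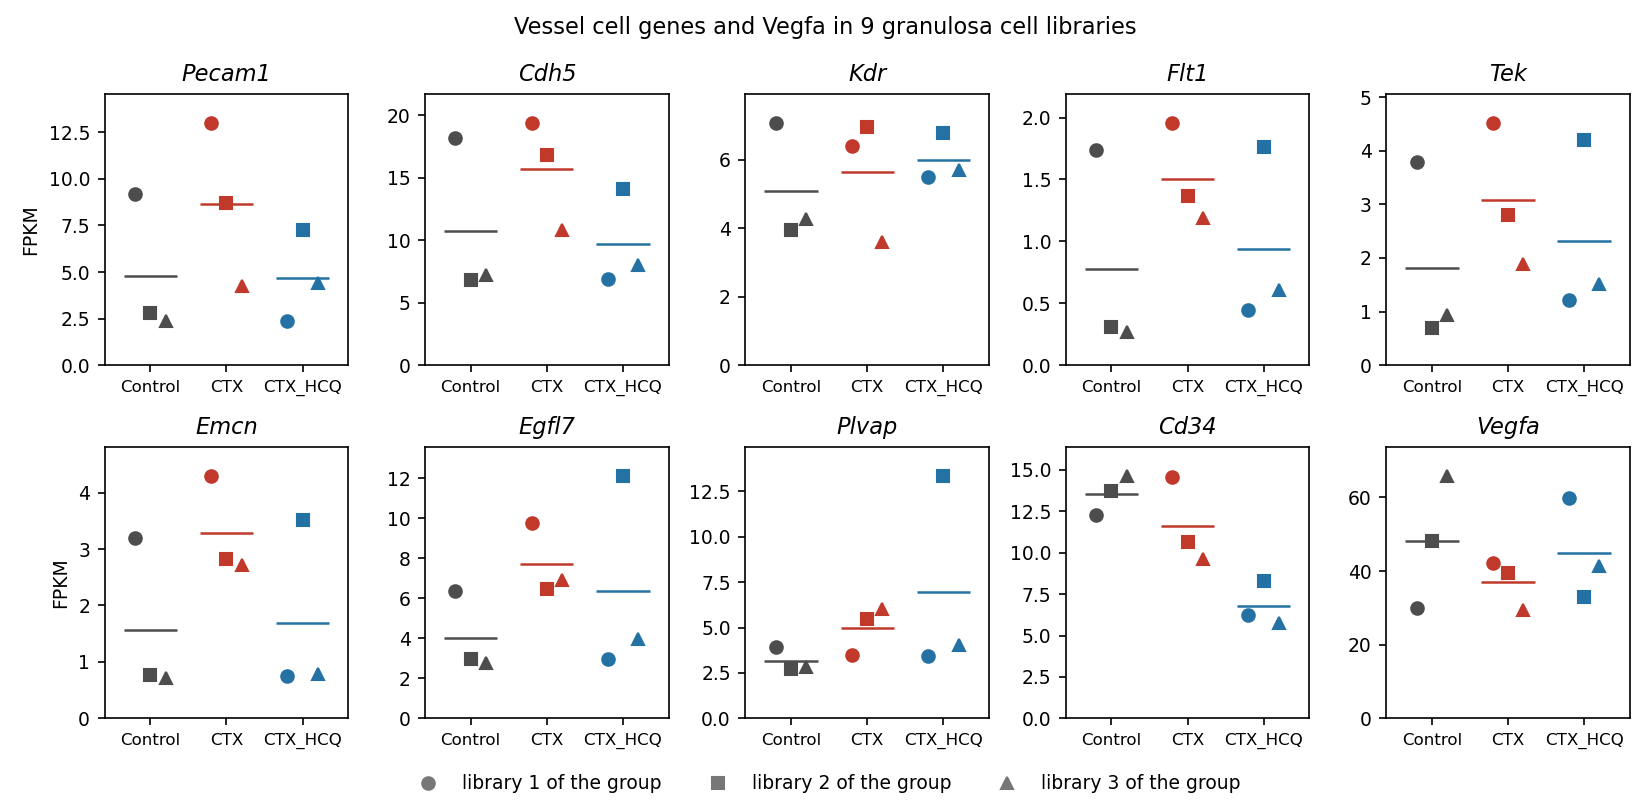
FPKM (y axis, linear from 0, a separate scale for each gene) of the 10 genes in the Control, CTX and CTX_HCQ groups (x axis). Each symbol is 1 library, its shape gives the library number within the group, and the bar is the mean of 3. Control 1 and CTX_HCQ 2 stand above the other libraries of their groups for Pecam1, Cdh5, Kdr, Flt1, Tek, Emcn, Egfl7 and Plvap, while for Cd34 all CTX_HCQ libraries, at 5.75 to 8.29, lie below the rest.

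Starting points of transcription were looked up to show the sequence in front of genes that moved together across libraries (Flt1, Tek and Emcn) and of those that did not follow them (Cd34 and Vegfa). RefSeq windows of 250 bases upstream of the start, on build GRCm38.p6, were matched for 7 of the 10 genes. Each sequence is printed 5′ to 3′ on the gene's strand, and capitals mark AGGAAG or its reverse complement CTTCCT, which hold the core read by ETS transcription factors such as ERG and FLI1 of endothelium. Flt1 lies at chr5:147726012-147726261 on the minus strand, Tek at chr4:94739039-94739288 on the plus strand, Emcn at chr3:137340828-137341077 on the plus strand, Cd34 at chr1:194938571-194938820 on the plus strand and the first listed start of Vegfa at chr17:46032378-46032627 on the minus strand.
Flt1: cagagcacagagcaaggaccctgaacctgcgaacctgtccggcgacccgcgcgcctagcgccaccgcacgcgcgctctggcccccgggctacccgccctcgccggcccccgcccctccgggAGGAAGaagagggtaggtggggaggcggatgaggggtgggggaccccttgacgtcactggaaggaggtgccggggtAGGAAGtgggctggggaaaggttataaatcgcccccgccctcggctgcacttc
Tek: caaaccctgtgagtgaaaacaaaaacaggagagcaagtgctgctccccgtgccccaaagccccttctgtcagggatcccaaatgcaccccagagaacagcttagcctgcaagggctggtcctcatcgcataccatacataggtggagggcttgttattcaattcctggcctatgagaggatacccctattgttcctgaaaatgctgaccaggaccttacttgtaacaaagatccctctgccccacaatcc
Emcn: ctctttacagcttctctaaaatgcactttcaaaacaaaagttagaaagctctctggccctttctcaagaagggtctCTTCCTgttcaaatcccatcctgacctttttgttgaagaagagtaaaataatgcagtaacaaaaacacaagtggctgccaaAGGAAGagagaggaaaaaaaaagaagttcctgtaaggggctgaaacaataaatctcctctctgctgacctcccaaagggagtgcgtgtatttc
Cd34: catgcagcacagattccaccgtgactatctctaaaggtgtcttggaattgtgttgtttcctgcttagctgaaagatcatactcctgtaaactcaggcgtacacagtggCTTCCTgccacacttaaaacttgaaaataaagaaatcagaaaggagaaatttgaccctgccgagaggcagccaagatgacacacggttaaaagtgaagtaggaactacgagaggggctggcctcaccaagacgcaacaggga
Vegfa: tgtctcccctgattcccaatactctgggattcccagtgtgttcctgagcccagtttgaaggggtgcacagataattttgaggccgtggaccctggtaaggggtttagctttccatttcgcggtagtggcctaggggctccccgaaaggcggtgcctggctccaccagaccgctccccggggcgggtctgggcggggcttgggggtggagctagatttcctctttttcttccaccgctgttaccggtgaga
AGGAAG was found on either strand in the Flt1 window with its first base at positions -129 and -53 from the start, in Emcn at -174 and -93, and in Cd34 at -142. The windows of Tek and of this start of Vegfa held none. Over all 10 windows of the 7 matched genes, which have several starts for Egfl7 and Vegfa, 5 held the motif, beside 29.48% of 32851 windows of the same length. Those windows belonged to 4 of the 7 genes, Flt1, Emcn, Cd34 and Egfl7, the last at 2 of its 3 starts. A share by gene was not taken over all genes. ACGTG, a form of the core of hypoxia response elements, was on either strand in 1 of the 10 windows, beside 16.57% of all windows. Other forms of that core were not searched for. That window belongs to a second listed start of Vegfa, at chr17:46025164-46025413 on the minus strand, and is not printed. It lies downstream of the first listed start, whose window held no ACGTG. A match is a description of the letters, and binding was not measured.

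Most of the vessel cell genes moved together from library to library. Control 1, CTX 1, CTX 2 and CTX_HCQ 2 were the 4 highest libraries for 6 of the 9 vessel cell genes, namely Pecam1, Cdh5, Kdr, Flt1, Tek and Emcn. Among the 15 pairs of Pecam1, Cdh5, Flt1, Tek, Emcn and Egfl7, Pearson's r of log2(FPKM + 1) over 9 libraries ran from 0.835 to 0.978, and Spearman's rho from 0.733 to 0.983. With group means removed r ran from 0.806 to 0.985, and with the 2 libraries farthest from the median left out from 0.835 to 0.981. These are descriptions over 9 points that share a dissection and a library each, and the points fall into a high and a low set, so no p is given.

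**Figure D2:**
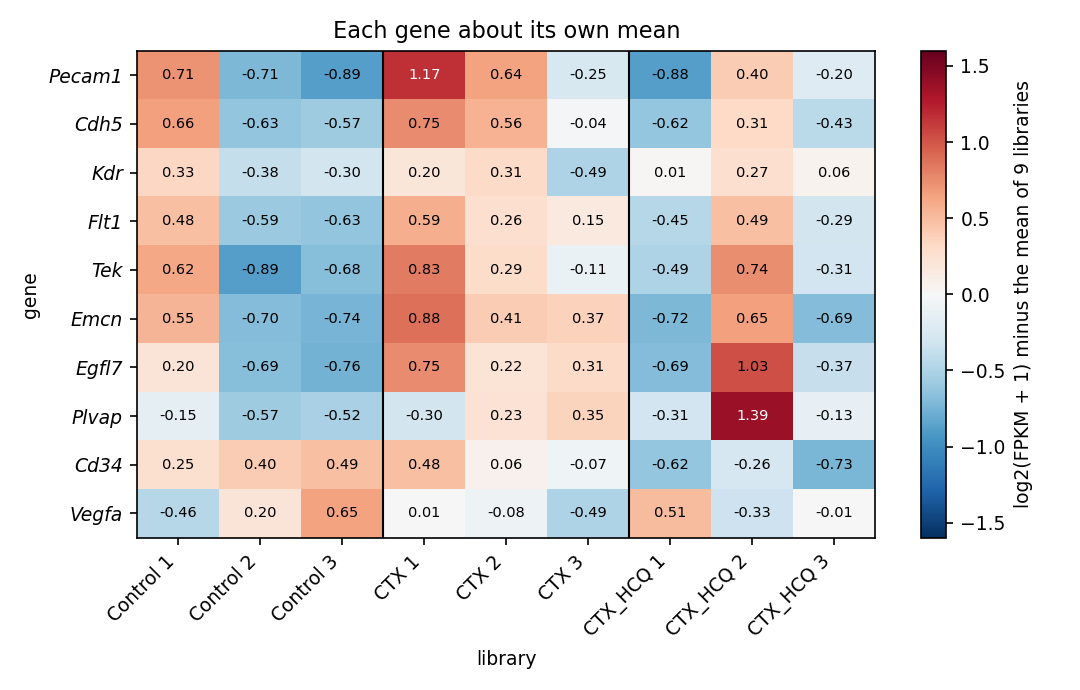
log2(FPKM + 1) of each gene (rows) in each library (columns) minus the gene's mean over 9 libraries, with group borders drawn as black lines. Red cells lie above and blue cells below the mean. The columns of Control 1, CTX 1, CTX 2 and CTX_HCQ 2 are red for most vessel cell genes. Those of Control 2, Control 3 and CTX_HCQ 1 are blue for most.

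The other vessel cell genes were less alike. Kdr correlated with the other 8 at r from -0.16 to 0.76, Plvap at -0.34 to 0.75 and Cd34 at -0.34 to 0.30. With group means removed these ranges were 0.23 to 0.89 for Kdr, 0.22 to 0.78 for Plvap and 0.22 to 0.51 for Cd34. Without the 2 farthest libraries they were -0.04 to 0.88 for Kdr, -0.34 to 0.78 for Plvap and -0.34 to 0.87 for Cd34, the highest with Flt1. For Cd34 those libraries were always picked on the partner gene, so its range does not rest on 1 fixed omission. Vegfa, the ligand, correlated negatively with most of the vessel cell genes, at r from -0.77 with Flt1 to 0.06, and at -0.74 to 0.21 with group means removed. With Pecam1 the r was -0.63, rho was -0.57, and r was -0.72 without the 2 farthest libraries. Leaving out the 2 farthest, picked on the partner gene each time, gave -0.89 with Kdr and 0.70 with Cd34, the ends of the range over the 9 genes.

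**Figure D3:**
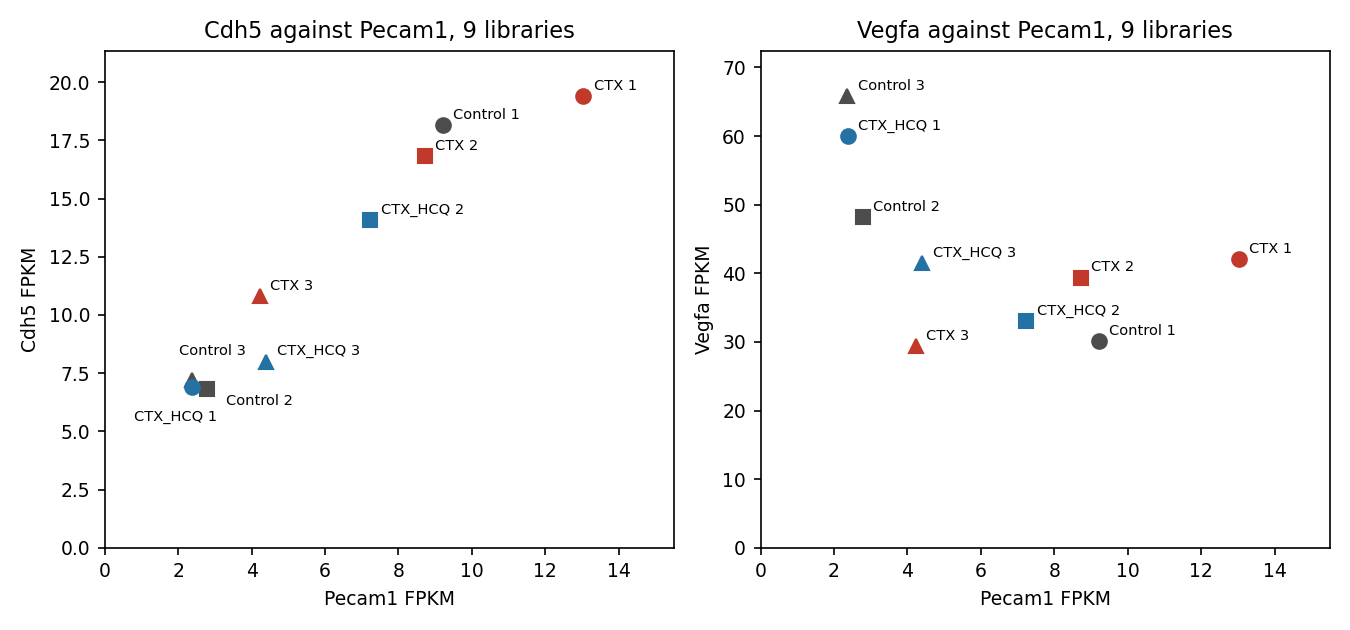
FPKM of Cdh5 (left, y axis) and of Vegfa (right, y axis) against Pecam1 FPKM (x axis), on linear axes from 0, with 1 labelled symbol per library. Cdh5 climbs with Pecam1 from the cluster of Control 2, Control 3 and CTX_HCQ 1 to CTX 1, while the 3 libraries with the highest Vegfa, at 48.2 to 65.8 FPKM, are those with the lowest Pecam1.

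The 5 genes outside the set whose levels were most like Pecam1 over the 9 libraries were Tspan13 (r 0.99), Cd83 (0.99), Chek1 (0.99), S1pr1 (0.98) and Ramp3 (0.98). S1pr1 encodes a sphingosine phosphate receptor of endothelium and lymphocytes, Cd83 a surface protein of activated leukocytes and Chek1 a cell cycle checkpoint kinase. Among 14430 other tested genes ordered by r with Pecam1, Cdh5 was at rank 13, Tek at 55, Flt1 63, Emcn 123, Egfl7 288, Kdr 617, Plvap 3457, Cd34 4743 and Vegfa 13128. The genes most like Vegfa were Naf1 (r 0.95), the hexokinase gene Hk2 (0.95), H2-Q10 (0.95), Pthlh (0.93) and Edn2 (0.93). Edn2, an endothelin made by granulosa cells around ovulation, stood at 7.97, 14.9 and 14.6 FPKM in Control 2, Control 3 and CTX_HCQ 1 and at 0.625 to 2.63 in the other 6 libraries. Those 3 libraries were also the highest for Vegfa. H2-Q10 belongs to a family of near-identical histocompatibility genes, and its level is uncertain.

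Markers of other cells moved with these libraries as well. The 9 vessel cell genes summed to 34.7 to 65.8 FPKM in Control, 47.0 to 77.5 in CTX and 29.8 to 71.3 in CTX_HCQ. A list of 30 other endothelial markers, such as Tie1, Erg and Cldn5, summed to 76.7 to 183, 134 to 220 and 96.6 to 207, with none at 0 in any library. The 14 listed markers of pericytes and smooth muscle, the wall cells of vessels, summed to 61.3 to 193 in Control, 130 to 162 in CTX and 77.5 to 242 in CTX_HCQ, with 1 of them at 0 in CTX 2. Rgs5, a pericyte gene, stood at 8.54, 1.43 and 1.83 FPKM in Control, at 16.3, 6.67 and 6.95 in CTX, and at 1.54, 13.7 and 3.68 in CTX_HCQ. As for the endothelial genes, Control 1 and CTX_HCQ 2 were the high libraries of their groups.

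As the median over the tested genes of log2(FPKM + 1) about its 9-library mean, the vessel cell genes stood at 0.48 in Control 1, -0.63 in Control 2 and -0.63 in Control 3, at 0.75, 0.29 and -0.04 in CTX, and at -0.62, 0.49 and -0.31 in CTX_HCQ. The oviduct list was above its mean in Control 1 (1.52) and in all CTX libraries (1.38, 1.21 and 2.005), and below it in Control 2 (-1.51), Control 3 (-2.01) and all CTX_HCQ libraries (-0.80, -0.83 and -0.63). It parted from the vessel cell genes in CTX_HCQ 2 and CTX 3. Granulosa markers stayed within -0.32 to 0.16. Theca and luteal markers stood at 0.40, -0.32 and -0.03 in Control and at 0.70, 0.41 and -0.12 in CTX. In CTX_HCQ they stood at -0.19, 0.09 and -0.90. Like the vessel cell genes, they were above their mean in Control 1, CTX 1, CTX 2 and CTX_HCQ 2 and below it elsewhere. The 9 theca and luteal markers summed to 3498 to 6390 FPKM in Control, 5771 to 8150 in CTX and 2592 to 5764 in CTX_HCQ. The part of tissue carried along at dissection in the vessel gene levels was not tested.

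**Figure D4:**
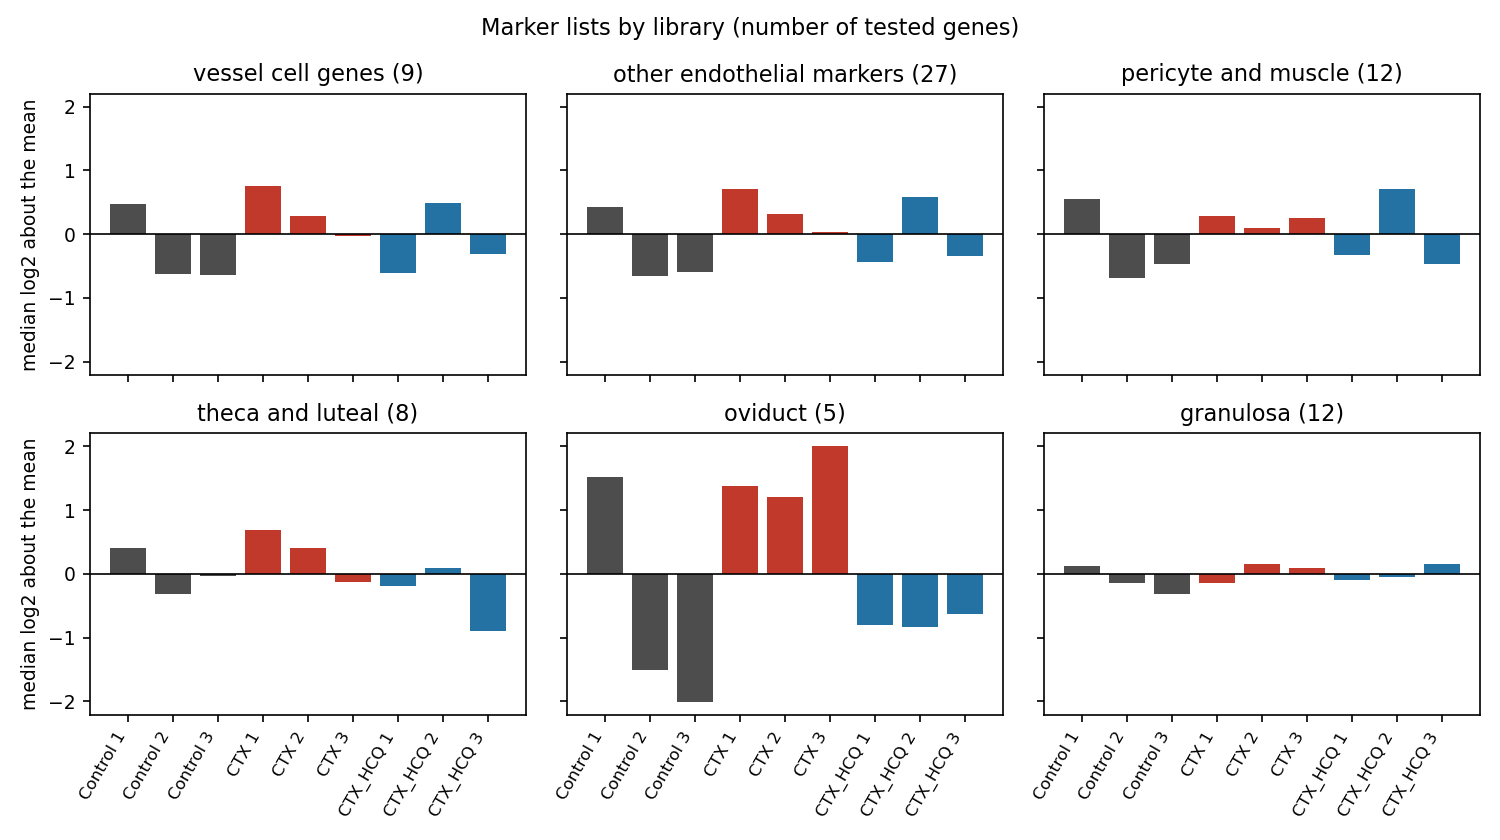
Median of log2(FPKM + 1) about the 9-library mean (y axis, shared) for 6 marker lists in each library (x axis), coloured by group, with the number of tested genes in brackets. The medians of vessel cell genes and of other endothelial, pericyte and muscle, and theca and luteal markers are above 0 in Control 1, CTX 1, CTX 2 and CTX_HCQ 2. The granulosa median stays between -0.32 and 0.16 in every library.

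In the comparison of CTX with Control, which asks what cyclophosphamide alone did, 8 of the 9 vessel cell genes had the higher mean in CTX and Cd34 and Vegfa the lower. None passed limma's test with Benjamini-Hochberg adjustment over 14431 genes at 0.05. The median log2 difference of the vessel cell genes was 0.60 on the log2(FPKM + 1) scale, beside a median of -0.00 and 49.5% of differences above 0 over all tested genes. That scale understates changes of low genes, and the median was 0.97 with 0.1 added in place of 1. Emcn had the largest difference on this scale with all libraries, while Flt1 did in the voom fit, Pecam1 without Control 1 and Egfl7 without Control 2. For Emcn, CTX averaged 3.28 ± 0.883 FPKM and Control 1.56 ± 1.42. This is 0.85 on the log2 scale (SE 0.43, limma adjusted p = 0.653). Egfl7 stood at 7.70 ± 1.80 and 4.03 ± 2.01 (0.84, SE 0.42, adjusted p = 0.653), and Pecam1 at 8.66 ± 4.40 and 4.79 ± 3.83 (0.82, SE 0.49, adjusted p = 0.655).

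On the same scale the others were smaller. Tek stood at 3.07 ± 1.34 and 1.81 ± 1.73 FPKM (log2 difference 0.65), Cdh5 at 15.7 ± 4.40 and 10.7 ± 6.43 (0.60), Flt1 at 1.51 ± 0.403 and 0.773 ± 0.838 (0.58), and Plvap at 4.97 ± 1.33 and 3.16 ± 0.684 (0.51). The added 1 shrinks Flt1 most: its means differed 1.95-fold, against 1.81-fold for Pecam1 and 1.91-fold for Egfl7. With 0.1 added its log2 difference was 1.27, and voom gave 1.505, beside 1.42 for Emcn. Kdr differed by 0.12 (SE 0.25), Cd34 by -0.22 (SE 0.20) and Vegfa by -0.32 (SE 0.32). The Vegfa difference was -0.61 without Control 1 and -0.059 without Control 3. Over the 10 genes the limma adjusted p ran from 0.653 to 0.881. Libraries did not overlap in 1 of the 10, Egfl7, higher in CTX, where 8.72% of all tested genes were apart in that direction and 11% in the other. Over all genes limma called 0, or 0% (smallest adjusted p 0.639), 1126 had an unadjusted p under 0.05, which is 7.8% and includes none of the 10, and limma voom on the recovered reads called 0.

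The size of these differences changed with single libraries. Without Control 1 the median of the vessel cell genes was 1.02, and without Control 2 it was 0.41. The voom fit gave 1.01. With library weights, which count Control 1 at 0.593 and Control 2 at 3.72, the median was 1.07 and 3 genes passed: Pecam1 at 1.43 (adjusted p = 0.0487), Cdh5 at 1.07 (0.0495) and Emcn at 1.22 (0.0478), among 648 called in all. In the other 19 alternatives no member passed.

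Genes around the members followed them in part. Of 27 tested other endothelial markers, 26 had the higher mean in CTX, with a median of 0.72 and 0 called. An unadjusted p under 0.05 was found for 4 of the 27, Sox17, Sox18, Sox7 and Myct1, beside the 7.8% of all tested genes. Sox18, a transcription factor of developing vessels, stood at 14.9, 6.78 and 7.64 FPKM in Control, at 26.2, 19.5 and 20.1 in CTX, and at 10.2, 26.6 and 10.1 in CTX_HCQ. All CTX libraries lay above all Controls, and the log2 difference was 1.15 (SE 0.38, limma adjusted p = 0.639). Sox17 differed by 1.18 (SE 0.38), Myct1 by 1.09 (SE 0.46) and Sox7 by 0.79 (SE 0.29). In the pericyte and muscle list 11 of 12 tested genes were higher, with a median of 0.47.

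Markers of other cell types had values in this comparison as follows. Oviduct markers were higher in CTX in 5 of 5 tested genes, with a median of 2.45, and theca and luteal markers in 7 of 8, with a median of 0.54. Erythroid genes were lower in 5 of 5, with a median of -1.44, and they summed to 3310 FPKM in Control 3 against 471 and 796 in the other Controls. Fibroblast and stroma genes were lower in 9 of 12, with a median of -0.30. Granulosa markers were higher in 6 of 12 and lower in 6, with a median of 0.10 and a range from -0.74 to 1.28. None of these genes passed, and their part in the vessel gene differences was not tested.

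Ligands and signalling genes went both ways. Of 29 tested genes of the VEGF, angiopoietin and Notch pathways, 17 had the higher mean in CTX and 12 the lower, with a median of 0.08 and 0 called. Libraries were apart and higher in CTX for 3 of the 29 and apart and lower for 0, beside 8.72% and 11% of all tested genes. Ang, which encodes the ribonuclease angiogenin, differed by 0.85 (SE 0.28), the Notch target gene Hey1 by 0.60 (SE 0.22) and Vegfc, the lymphatic growth factor, by 0.62 (SE 0.31). Dll4 at 0.87 (SE 0.42) and Angpt1 at 0.86 (SE 0.56), ligands of Notch and of Tek, were as high and were picked out after their values had been seen. Of 21 hypoxia response genes 7 were higher and 14 lower, with a median of -0.19. By library, the median of this list about its 9-library mean was 0.18 in Control 2, 0.35 in Control 3 and 0.15 in CTX_HCQ 1. Those libraries had the highest Vegfa, and in the others the list stood at -0.30 to 0.03. Slc2a1, the glucose transporter GLUT1, stood at 19.7, 21.9 and 23.3 FPKM in Control, at 17.9, 14.6 and 17.6 in CTX, and at 18.8, 17.0 and 12.2 in CTX_HCQ, a log2 difference of -0.36 (SE 0.19, limma adjusted p = 0.653) for CTX against Control. Control libraries were above all others for this gene. Of 5 tested lymphatic markers 3 were higher and 2 lower.

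**Figure D5:**
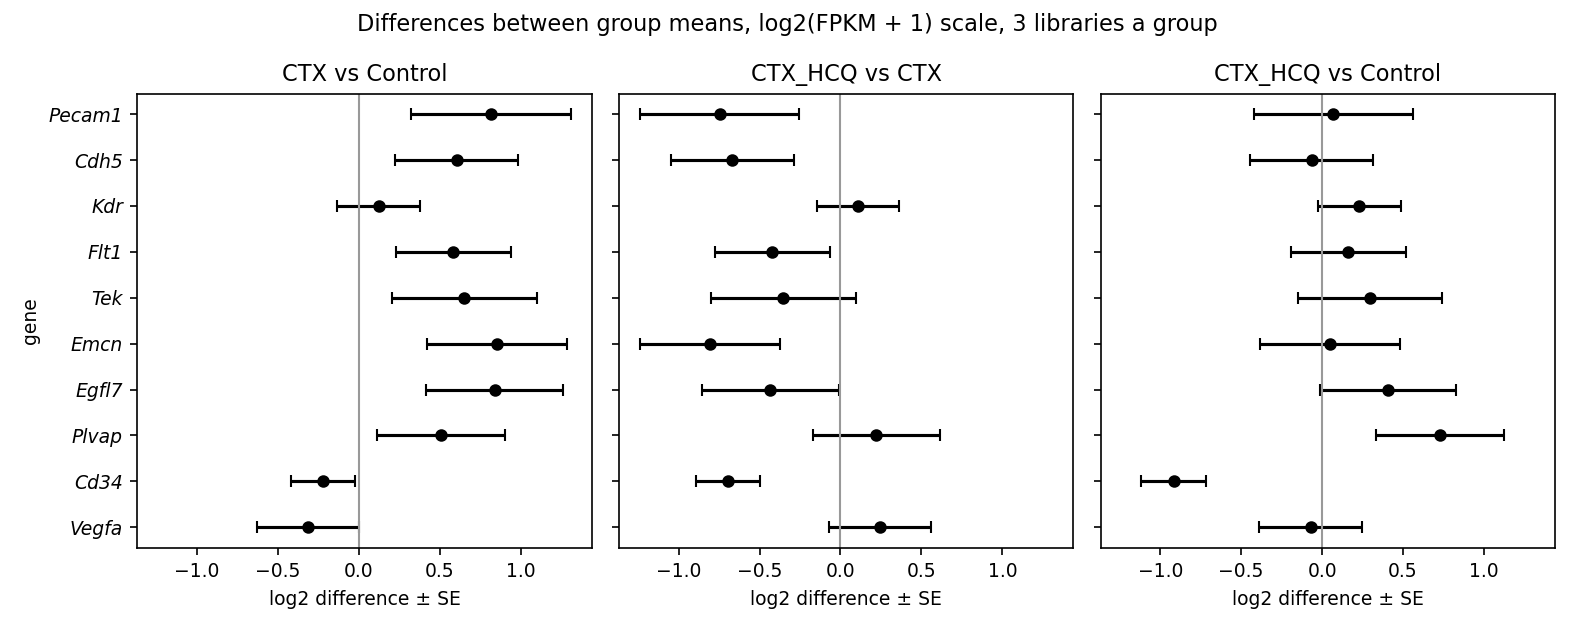
Log2 difference between group means on the log2(FPKM + 1) scale (x axis) for each gene (y axis) in the 3 comparisons, with bars of ± 1 SE from the limma fit and 3 libraries a group. Most vessel cell genes lie right of 0 for CTX vs Control and left of 0 for CTX_HCQ vs CTX, and Cd34 lies at -0.92 for CTX_HCQ vs Control.

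CTX_HCQ was compared with CTX to see what hydroxychloroquine changed in mice given cyclophosphamide. This comparison shares the CTX libraries with the first, so opposite signs are not independent of it. Of the 9 vessel cell genes 7 had the lower mean in CTX_HCQ, with a median log2 difference of -0.43, where 47.9% of all tested genes were lower and the median over them was 0.01. None of the 10 passed (limma adjusted p from 0.590 to 0.963), and limma called 0% of all genes. The smallest adjusted p was 0.394, and 5.44% of genes, 785 in number, had an unadjusted p under 0.05. Voom called 0.

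Cd34 had the smallest p of the 10. Its means were 6.77 ± 1.35 FPKM in CTX_HCQ and 11.6 ± 2.62 in CTX, 1.72 times as high in CTX, a log2 difference of -0.70 (SE 0.20, unadjusted p = 0.00568, limma adjusted p = 0.590). It was the only one of the 10 whose libraries did not overlap, in the direction that holds 4.57% of all tested genes, with 3.45% apart in the other. Over 20 alternatives its difference stayed between -0.83 and -0.53, and its adjusted p ran from 0.0943 to 1. The other differences came with wider errors relative to their size: Emcn at -0.81 (SE 0.43), Pecam1 at -0.75 (SE 0.49), Cdh5 at -0.67 (SE 0.38), Egfl7 at -0.43 (SE 0.42), Flt1 at -0.42 (SE 0.35) and Tek at -0.35 (SE 0.45). Vegfa differed by 0.25, Plvap by 0.22 and Kdr by 0.11. For Vegfa this was 0.018 without CTX_HCQ 1 and 0.44 without CTX_HCQ 2.

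CTX_HCQ 2 held higher levels than the other libraries of its group for all 9 vessel cell genes. Without it the median of the vessel cell genes was -0.83 and 8 of 9 were lower, and without CTX_HCQ 1 the median was -0.24, with 7 of 9 lower. Library weights gave -0.85 with 9 of 9 lower, voom -0.72 and 0.1 added in place of 1 gave -0.72. Of 27 other endothelial markers 23 were lower, with a median of -0.45, and of 12 pericyte and muscle genes 9, with a median of -0.20. Sox17, highest in CTX 3, differed by -1.04 (SE 0.38) and Sox7 by -0.69 (SE 0.29). Vegfc stood at 2.28, 2.18 and 1.99 FPKM in CTX and at 0.493, 1.68 and 0.426 in CTX_HCQ, with no overlap, a log2 difference of -0.82 (SE 0.31, limma adjusted p = 0.858). The pathway list had 12 genes higher and 17 lower, with a median of -0.07, and the hypoxia list 10 higher and 11 lower, with a median of -0.01. Oviduct markers were lower in CTX_HCQ in 4 of 5 tested genes, with a median of -2.90, and theca and luteal markers in 7 of 8, with a median of -0.78. None of these passed, and their part in the vessel gene values was not tested.

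The last comparison, CTX_HCQ with Control, shares its libraries with both others. Pecam1 stood at 4.67 ± 2.44 and 4.79 ± 3.83 FPKM, Cdh5 at 9.65 ± 3.85 and 10.7 ± 6.43, Emcn at 1.68 ± 1.59 and 1.56 ± 1.42, Flt1 at 0.936 ± 0.717 and 0.773 ± 0.838, and Tek at 2.32 ± 1.65 and 1.81 ± 1.73, in CTX_HCQ and Control in turn. Kdr stood at 6.00 ± 0.689 and 5.10 ± 1.73, and Egfl7 at 6.34 ± 5.02 and 4.03 ± 2.01. The log2 differences of these 7 genes ran from -0.07 (SE 0.38) for Cdh5 to 0.41 (SE 0.42) for Egfl7, and Vegfa differed by -0.07 (SE 0.32). Each of these differences was smaller than its SE. The median of the 9 vessel cell genes was 0.16 with 7 higher, where 48.1% of all tested genes were higher and the median over them was -0.01. Without CTX_HCQ 2 the median was -0.12 with 2 higher, without Control 1 it was 0.53, and without Control 2 or Control 3 it was -0.01 or -0.03.

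Plvap had the largest positive difference of the 10, with a CTX_HCQ mean of 6.94 ± 5.57 FPKM against 3.16 ± 0.684 in Control, which rested on 13.4 in CTX_HCQ 2 (log2 difference 0.73, SE 0.39, unadjusted p = 0.0934). Cd34 again set itself apart, with 6.77 ± 1.35 FPKM in CTX_HCQ and 13.6 ± 1.19 in Control, 2.004 times as high in Control. The log2 difference was -0.92 (SE 0.20), with an unadjusted p of 0.000942, rank 6 of 14431 genes by p, and a limma adjusted p of 1. It held its direction in all 20 alternatives, at -1.05 to -0.82, with an adjusted p from 0.102 to 1. Of the 10 genes it alone had groups that did not overlap, lower in CTX_HCQ, as did 3.06% of all tested genes, with 3.25% apart in the other direction. Limma called 0% of genes, the smallest adjusted p was 0.669, 312 genes (2.16%) had an unadjusted p under 0.05, and voom called 0.

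Of 27 other endothelial markers 22 were higher in CTX_HCQ, with a median of 0.24, and of 12 pericyte and muscle genes 11, with a median of 0.27. The VEGF, angiopoietin and Notch genes were split at 18 higher and 11 lower, with a median of 0.05. Hypoxia response genes were lower in 17 of 21, with a median of -0.23 and 0 called. Slc2a1 differed by -0.43 (SE 0.19), with no overlap between the groups. Angptl4, a secreted lipase inhibitor induced by fasting and low oxygen, stood at 26.2, 37.8 and 54.4 FPKM in Control and at 29.3, 25.1 and 14.5 in CTX_HCQ, a log2 difference of -0.75 (SE 0.31, limma adjusted p = 1). The groups overlapped for this gene. Apln, which encodes the vascular ligand apelin and was picked out after its values had been seen, stood at 27.6, 77.1 and 83.8 FPKM in Control, at 39.7, 27.2 and 7.89 in CTX, and at 63.6, 7.92 and 4.18 in CTX_HCQ. Its high libraries, Control 2, Control 3 and CTX_HCQ 1, were those with the highest Vegfa.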

How the data were processed

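The authors deposited 1 table of FPKM for 9 libraries of polyadenylated RNA, and no read counts were used other than those recovered from it. The submitters' processing notes name DESeq2 1.20.0, featureCounts 1.5.0-p3, HISAT2 2.0.5 and fastp 0.23.2 as the authors' tools, with build GRCm39 (mm39). Their roles, settings and the strandedness of counting are not given in the sources used here, so overlapping and antisense genes cannot be told apart. Symbols came from an annotation of another build (GENCODE M21), which matched 52073 of 56748 identifiers, and coordinates are printed only for RefSeq windows of GRCm38.p6.

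Genes with FPKM of at least 1 in at least 3 libraries were tested as log2(FPKM + 1) in 1 limma 3.58.1 fit (R 4.3.3) with a mean per group over all 9 libraries, with variances moderated along a trend on mean level, two-sided, with Benjamini-Hochberg adjustment over 14431 genes and a threshold of 0.05. With the annotation's summed exon lengths, FPKM of 13573 of the 14431 tested genes fell on whole reads within 0.02 reads. For the other 858 a length that gave whole reads was searched for, so their fit to whole reads is no check. To look for a library deposited more than once, recovered reads were compared within groups. The chi-square per degree of freedom was 15.3 to 161, and no libraries were merged. Scripts were tested on simulated data. There were 20 alternatives: pseudocount, filters, scalings, library weights, the groups in the fit, a replicate block, limma voom with TMM factors on recovered reads, and libraries left out.

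The members and gene lists were chosen with earlier results of these data known. All members are given. Of each other list described, up to 4 tested genes of smallest unadjusted p are open to naming, and the 5 genes most correlated with Pecam1 and with Vegfa are named, without predicted genes. The gene examples Tie1, Erg, Cldn5 and Ptprc, the markers Foxl2, Fshr, Lyz2 and C1qa, and Apln, Dll4 and Angpt1 fall outside that rule and were chosen after their values were seen.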

Additional observations from a re-analysis of the deposited data

How the results depend on the processing

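The number of genes called was 0 in all 3 comparisons under the main settings and in most alternatives. Library weights gave 648 calls for CTX against Control, 1 for CTX_HCQ against CTX and 1 for CTX_HCQ against Control, and with 1 library left out the counts ran from 0 to 13, 0 to 10 and 0 to 0, the upper ends without Control 1. Library weights also brought Pecam1 (1.43), Cdh5 (1.07) and Emcn (1.22) past the threshold for CTX against Control. Of 591 member values under alternatives, 27 changed sign, 20 of them with a library left out. In CTX_HCQ against CTX, library weights turned Kdr to -0.12 and Plvap to -0.15, and leaving out CTX 3 and CTX_HCQ 3 together turned Kdr to -0.11. In CTX_HCQ against Control, quantile normalization turned Vegfa to 0.015, library weights turned Vegfa to 0.090 and Pecam1 to -0.060, and leaving out CTX 3 and CTX_HCQ 3 turned Cdh5 to 0.027. With 1 library left out, Kdr ran from -0.028 to 0.37 in CTX against Control, and in CTX_HCQ against CTX Kdr ran from -0.14 to 0.26 and Plvap from -0.31 to 0.54. In CTX_HCQ against Control the ranges were -0.25 to 0.57 for Pecam1, -0.34 to 0.35 for Cdh5, -0.12 to 0.53 for Flt1, -0.083 to 0.77 for Tek, -0.41 to 0.47 for Emcn, -0.11 to 0.75 for Egfl7 and -0.37 to 0.19 for Vegfa. The cause of these changes was not tested. Scaling to FPKM outside the mitochondrial genome moved the share of genes higher in CTX_HCQ than in CTX from 52.1% to 65.1%. With a mean FPKM of at least 5, Flt1, Tek and Emcn were not tested.

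The correlations of same-numbered deviations ran from -0.46 to 0.14. Libraries of unlike number were not compared, so whether library numbers pair the samples was not settled. With the number as a replicate block, 0 genes were called in each comparison, and 847, 668 and 293 genes had an unadjusted p under 0.05, beside 1126, 785 and 312 without it.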
